A study of Mus musculus with 8 samples.

Results

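Epidermal tight junction genes are described here through the chromatin peaks that lie at and around them in newborn mouse skin. The members are 9 genes (Cldn1, Cldn3, Cldn4, Cldn7, Ocln, Tjp1, Tjp3, Cgn and F11r), chosen by name for their place in the junction, by a rule that uses no measured value but with earlier results of these data known, of 26182 genes with a curated RefSeq transcript. The source of every library was wild-type total epidermis taken at postnatal day 0.5, freed from the dermis with dispase and dissociated to single cells, with no mutant or treated group. The series holds 8 libraries for 6 antibodies, and peak lists for 4 of them were analysed here: MOF by ChIPseq, and Rfx2, H3K4me3 and H3K27Ac by Cut&Run. The H3K4me3 and H3K27Ac lists are attached to the libraries labelled H3K4me3_rep and H3K27Ac_rep, but neither list's peak names carry the rep mark, and the name of the H3K4me3 list lacks it too, so which of the 2 H3K4me3 libraries that list was called on is uncertain. Libraries for H4K16Ac and H3K4me1 were not analysed here. Each antibody had 1 list, so no value below has a replicate error, and no test between antibodies or genes was made. The lists themselves carry no read totals. The study's methods give them per library, and among the libraries of these 4 lists Rfx2 had the fewest mapped reads and H3K27Ac_rep the most. A missing peak says only that none was called at that depth.

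Tight junctions seal the space between neighbouring epithelial cells, and in the epidermis they sit in the granular layer beneath the cornified envelope. Claudins are small proteins with several membrane spans whose extracellular loops form the seal, and occludin (Ocln) and the immunoglobulin-like adhesion molecule JAM-A (F11r) share the same membrane. ZO-1 (Tjp1), ZO-3 (Tjp3) and cingulin (Cgn) form the cytoplasmic plaque that ties these proteins to actin. H3K4me3 marks the starts of active genes, and H3K27Ac marks active promoters and enhancers. MOF is the acetyltransferase that places H4K16Ac, and Rfx2 is a transcription factor known for ciliary genes.

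The promoters that show how the members differ are printed here from RefSeq (GRCm38.p6, which shares its coordinates with mm10). Each line gives the 250 bases before a start in the direction of transcription, with matches to the motifs searched in capitals. Cgn had the highest H3K4me3 of the 9 genes and MOF without H3K27Ac, Cldn1 and Cldn4 carried both histone marks and no MOF, and F11r carried MOF and both marks. The pair from Tjp3 sets its marked internal start beside an upstream start with no peak.
Cgn, chr3:94786483-94786732, minus strand: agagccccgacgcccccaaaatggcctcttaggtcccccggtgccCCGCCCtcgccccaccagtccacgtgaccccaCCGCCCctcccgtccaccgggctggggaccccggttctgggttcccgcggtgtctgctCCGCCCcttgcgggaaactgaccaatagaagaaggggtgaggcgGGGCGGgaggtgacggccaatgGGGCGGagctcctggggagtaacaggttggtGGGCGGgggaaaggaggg
Cldn1, chr16:26371840-26372089, minus strand: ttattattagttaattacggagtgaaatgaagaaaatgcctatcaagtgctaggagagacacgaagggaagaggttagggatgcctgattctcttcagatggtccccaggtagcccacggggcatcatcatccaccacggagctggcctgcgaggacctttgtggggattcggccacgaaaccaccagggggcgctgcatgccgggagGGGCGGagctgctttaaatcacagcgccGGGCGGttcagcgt
Cldn4, chr5:134946935-134947184, minus strand: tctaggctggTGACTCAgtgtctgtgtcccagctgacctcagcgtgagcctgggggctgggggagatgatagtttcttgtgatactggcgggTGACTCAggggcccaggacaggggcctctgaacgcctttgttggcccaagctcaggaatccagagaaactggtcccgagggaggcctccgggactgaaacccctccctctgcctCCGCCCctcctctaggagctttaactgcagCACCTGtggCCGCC
F11r, chr1:171437311-171437560, plus strand: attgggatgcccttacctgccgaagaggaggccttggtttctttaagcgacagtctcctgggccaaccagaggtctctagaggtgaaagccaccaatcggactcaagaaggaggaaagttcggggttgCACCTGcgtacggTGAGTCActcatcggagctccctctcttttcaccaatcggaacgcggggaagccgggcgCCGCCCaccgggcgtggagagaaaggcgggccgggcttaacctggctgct
Tjp3 internal start, chr10:81285782-81286031, minus strand: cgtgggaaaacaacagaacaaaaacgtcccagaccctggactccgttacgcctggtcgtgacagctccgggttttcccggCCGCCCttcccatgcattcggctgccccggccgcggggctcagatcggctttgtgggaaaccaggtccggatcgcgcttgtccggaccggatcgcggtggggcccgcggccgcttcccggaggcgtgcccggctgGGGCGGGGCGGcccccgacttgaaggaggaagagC
Tjp3 upstream start, chr10:81291582-81291831, minus strand: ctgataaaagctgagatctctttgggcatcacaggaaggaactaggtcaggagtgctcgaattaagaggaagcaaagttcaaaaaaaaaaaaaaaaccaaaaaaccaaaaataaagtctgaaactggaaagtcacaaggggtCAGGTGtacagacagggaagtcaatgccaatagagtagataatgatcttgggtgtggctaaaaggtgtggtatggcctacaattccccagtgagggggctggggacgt

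These letters were searched on both strands over 300 bases, from 250 before to 50 after each of 13 member starts. The 7 motifs were the GC box GGGCGG, the Snail-type E-box CAGGTG, AP-1 TGANTCA, ETS CCGGAAG, the TATA box TATAAA, the RFX half-site GTTGCC and the grainyhead motif AACCNGGTT. A GC box was found at all 10 member starts with H3K4me3, against 66.6% of all promoters with that mark and 35.7% of all 32851 promoters. The Cgn window held 6 GC boxes, the most of any member, and its GC content of 70.3% was above that of 90.9% of promoters. The E-box was found at 7 of the 10 marked member starts, against 18.4% of promoters with the mark. These starts belong to 6 genes, and the overlapping windows of the 2 Ocln starts share a match. A pair of AP-1 matches began at positions -240 and -158 from the Cldn4 start, and the only other AP-1 match began at -109 from the F11r start. AP-1 matches occurred in 4.40% of promoters with H3K4me3. ETS was found at 1 of the 10 (Cldn7), against 17.3%. An RFX half-site was found at 2, an Ocln start and the Tjp1 start, against 12.6%, and neither start had an Rfx2 peak. No member window held the TATA box or the grainyhead motif, which 6.18% and 0.353% of marked promoters did. The internal Tjp3 start had a ratio of observed to expected CpG of 0.966 and a GC content of 69.7%, and the upstream start printed here had 0.211 and 45.3%.

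A promoter was taken as 1 kb upstream to 100 bp downstream of a start, and a peak counted with an overlap of at least 1 bp. All 9 members had an H3K4me3 peak at the promoter, where 54.0% of all genes had one. That count was 4 against 25.5% of all genes when the centre of the peak had to lie in the window, and 5 against 45.3% with the stronger 50% of peaks by q-value. H3K27Ac was at 6 of the 9 (Cldn1, Cldn4, Ocln, Tjp1, Tjp3 and F11r), against 44.1% of all genes and 79.8% of genes with H3K4me3, and with the centre in the window at 2 against 26.2% of all genes. The claudins Cldn3 and Cldn7 and the plaque gene Cgn had H3K4me3 without a called H3K27Ac peak. MOF was at 3 promoters (Tjp1, Cgn and F11r), against 23.7% of all genes and 42.0% of genes with H3K4me3. The deposited MOF list is longer than the call that the study's methods state, and these 3 peaks rank low in it. Of the 6 members with both marks, 2 held MOF, where 48.8% of all genes with both marks did. No member had Rfx2 at the promoter, a peak found at 1.21% of all genes and 2.24% of those with H3K4me3, so a count of 0 among 9 is near the background. None of the 4 claudins had MOF at the promoter.

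In combination, Cldn1, Cldn4, Ocln and Tjp3 carried H3K4me3 and H3K27Ac alone, as 5666 genes (21.6%) did. Tjp1 and F11r carried MOF with both marks, shared with 5306 genes (20.3%). Cldn3 and Cldn7 carried H3K4me3 alone, which 2422 genes (9.25%) did. Cgn, with MOF and H3K4me3 but no H3K27Ac, had the least common of these patterns, found at 422 genes (1.61%).

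**Figure D1:**
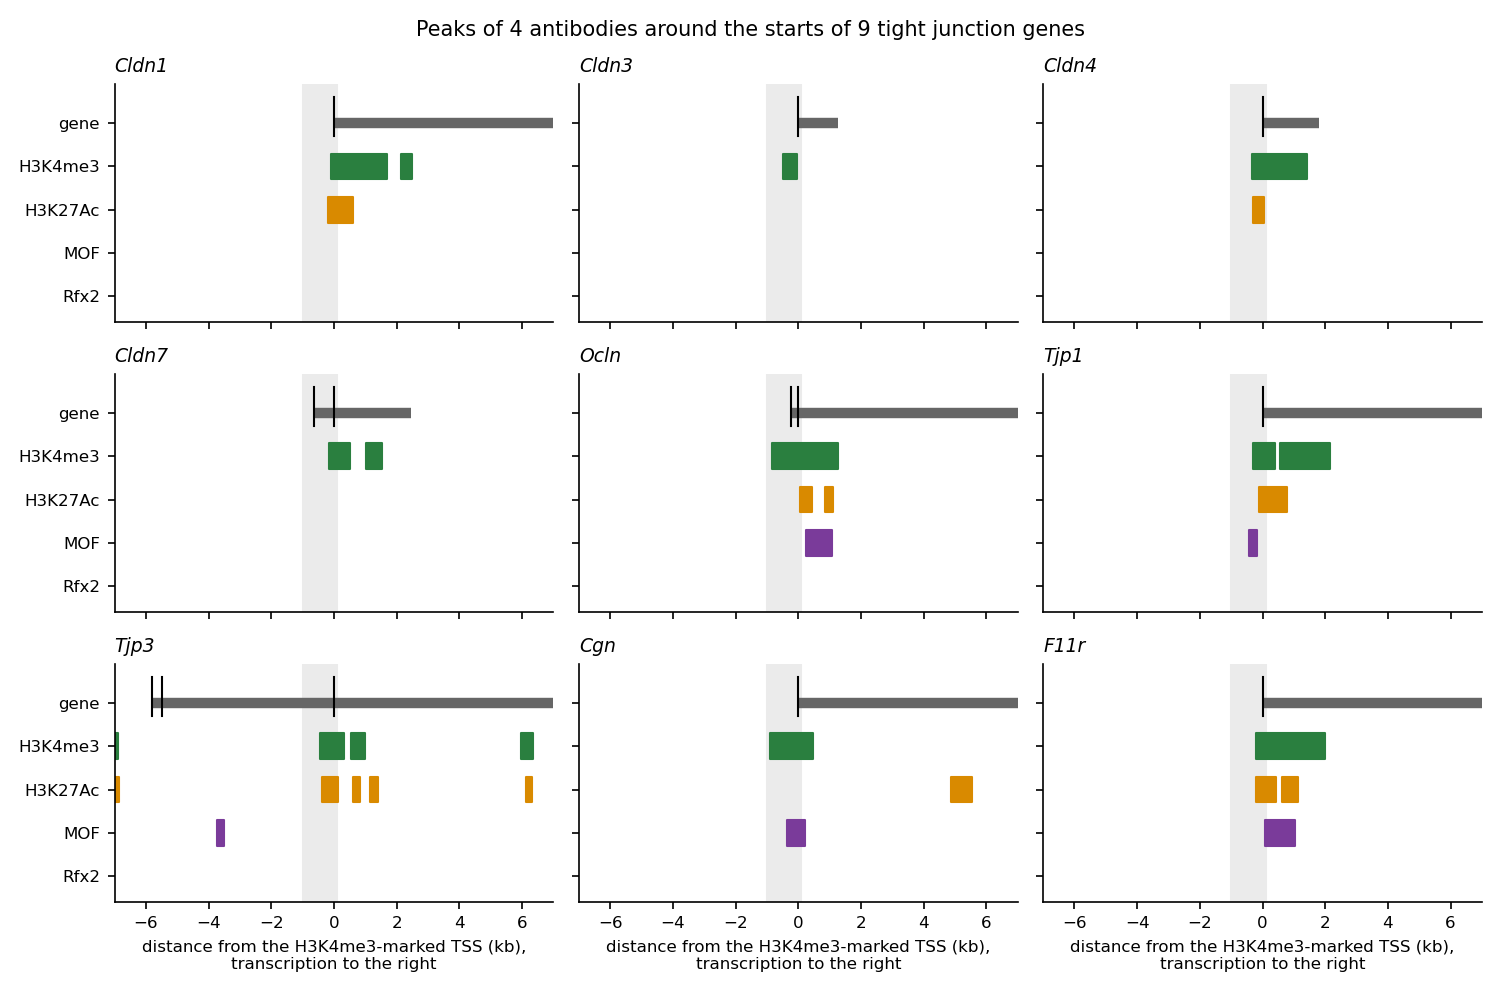
Peaks of the 4 antibodies within 7 kb of the H3K4me3-marked start of each gene, drawn to scale with the horizontal axis in kb and transcription to the right. The grey band is the promoter window, black ticks are curated starts, and the grey bar is the gene; all 9 genes have H3K4me3 at or beside the band, 3 have MOF inside it, and none has Rfx2.

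The height of a histone peak is given as the fold enrichment at its summit, as the peak caller reported it. At the claudins, the H3K4me3 fold enrichment was 5.36 at Cldn1, whose loss is known to make newborn skin leak water, 6.47 at Cldn3, 5.74 at Cldn4 and 6.02 at Cldn7. The other membrane proteins had 5.99 at Ocln and 4.85 at F11r. The plaque genes spanned the whole range, with 4.07 at Tjp1, 7.40 at Tjp3 and 10.3 at Cgn. Thus 8 of the 9 lay below the median of 8.04 over all 14133 genes with H3K4me3 at the promoter, and Cgn alone lay above it. The median of the 9 was 5.99. By q-value, 5 of the 9 members (Cldn1, Ocln, Tjp3, Cgn and F11r) had a promoter peak in the stronger 50% of the list. Of all 14133 genes with the mark there, 11871 did.

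The widths of these peaks fell into separate ranges. Peaks of 1747 to 2191 bp covered the starts of Cldn1 (1806 bp), Cldn4 (1747 bp), Ocln (2101 bp) and F11r (2191 bp), all genes of membrane proteins. The membrane protein genes Cldn3 and Cldn7 were not among them. Peaks of 451 to 776 bp lay at Cldn3 (451 bp), Cldn7 (651 bp), Tjp1 (710 bp) and Tjp3 (776 bp), and only Cgn, at 1350 bp, was close to the median of 1306 bp over all genes. Each width is that of a single called peak. Further H3K4me3 peaks of 1582 bp at Tjp1 and 428 bp at Tjp3 were called just downstream of the narrow ones. When all genes with H3K4me3 were split by width into 4 bins of nearly equal size, 4 members were in the narrowest bin and 4 in the widest. Height also varied with width over all genes, with a median fold enrichment of 7.05 in the narrowest bin, 10.3 and 8.70 in the next bins and 6.50 in the widest. Each of these 8 members, apart from Tjp3 at 7.40, was below the median of its own bin.

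**Figure D2:**
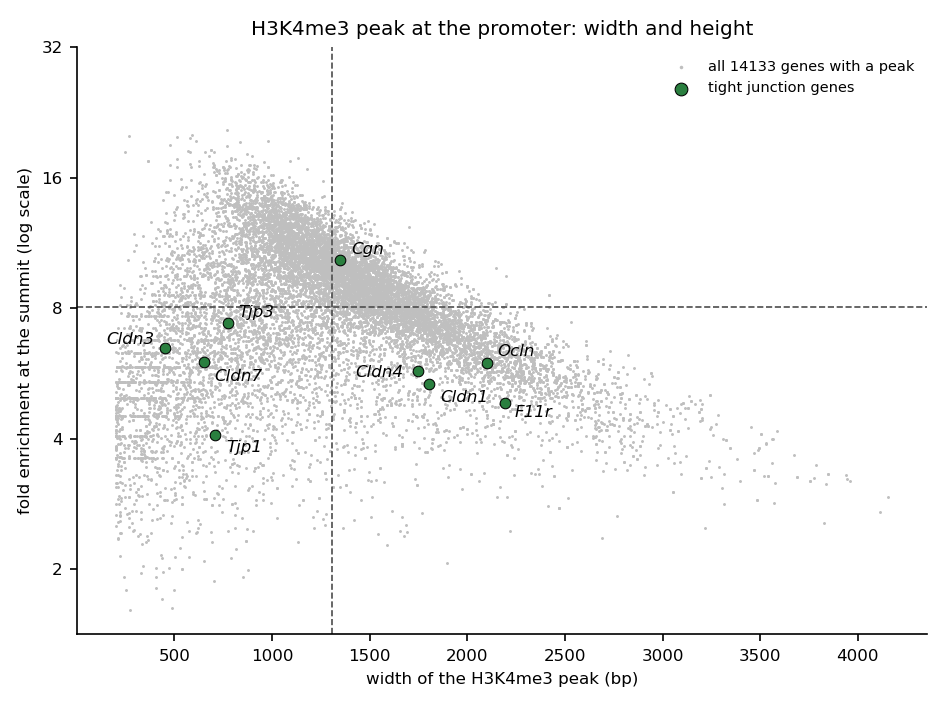
Fold enrichment at the summit (log scale) against the width in bp of the highest H3K4me3 peak at each promoter, for all 14133 genes with such a peak (grey) and the 9 tight junction genes (green), with dashed lines at the medians of 8.04 and 1306 bp. Cgn sits above the height median, and the other 8 sit below it in a narrow and a wide group.

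The 4 wide peaks lay mostly downstream of the start. The H3K4me3 peak reached 1978 bp into F11r, further than at 97.7% of genes, and 1705 bp into Cldn1, further than at 95.5%. It reached 1425 bp into Cldn4 and 1265 bp into Ocln, against a median of 786 bp over all genes. Cldn4 is itself 1812 bp long, so its peak covered most of the gene. At Cldn3 the peak ended 47 bp before the start, and 7.08% of genes had a peak that reached less far downstream. Cldn7 had a further intronic H3K4me3 peak of 6.40, and Tjp1 a further one of 5.24 over 1582 bp just downstream of the promoter peak. At both of these genes the gene body peak was higher than the promoter peak, as was an intronic peak of 8.12 at Tjp3.

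H3K27Ac at 5 of the 6 promoters that carried it had a fold enrichment below the median of all genes with the mark there. The fold enrichment was 6.82 at Tjp1, 6.09 at Ocln, 5.49 at Cldn4, 4.98 at F11r, 3.72 at Cldn1 and 3.62 at Tjp3, with a median of 5.24 against 6.72 over all genes with H3K27Ac at the promoter. Only Tjp1 was above that median. By q-value, 5 of these 6 (all but Tjp3) had a promoter peak in the stronger 50% of the list. Of all 11552 genes with the mark there, 9612 did. By fold enrichment, Cldn1 and Tjp3 were higher than 5.12% and 3.91% of genes with the mark there. The order of the members differed between the marks: Tjp1, the lowest of the 9 by H3K4me3, was the highest of the 6 by H3K27Ac, and Tjp3, the second highest by H3K4me3, was the lowest.

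Starts of the same gene differed. Tjp3 has 3 curated starts, and its H3K4me3 and H3K27Ac peaks lay at the internal start at chr10:81285781 (the sequence printed above), with no peak of any list at the starts at 81291267 and 81291581. Cldn7 has 2 curated starts, and H3K4me3 was counted only at the downstream one, at chr11:69965421. For Tjp1, the curated start at chr7:65371244 held the peaks, and the predicted starts at 65516851 and 65527850 held none. A further predicted Tjp1 start at 65371681 also had the MOF peak in its window. At Ocln both curated starts lay under the same H3K4me3 peak, and a predicted start at 100552291 had MOF in its window.

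The scale of the MOF score is unknown, and it served here to order peaks inside that list alone. At the promoters the scores were 463 at Tjp1, 486 at Cgn and 392 at F11r, against a median of 656 over all genes with MOF at the promoter, and these were at or above 26.5%, 29.4% and 14.2% of the 17546 peaks of the list. With the list cut by score to the length stated in the study's methods, an alternative chosen after seeing the data, 0 of 9 members had MOF at the promoter, against 17.5% of all genes. With the 50% of the list that scored highest, the count was also 0, against 14.5% of all genes. The Tjp1 peak was 249 bp wide and ended 184 bp before the start, that of Cgn covered the start, and that of F11r began 84 bp after it and reached 1043 bp into the gene. The F11r peaks also lay at the promoter of Gm26641, a gene on the opposite strand that starts 239 bp away. At Ocln a MOF peak with a score of 571 came to within 251 bp downstream of a start, just outside the promoter window. It entered with a window of 500 bp on either side, which gave MOF at 4 of 9 members against 24.3% of all genes.

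Around the 9 genes, counting the promoter, the gene body and 20 kb on either side, there were 16 MOF peaks, 29 H3K4me3 peaks, 29 H3K27Ac peaks and 1 Rfx2 peak. Gene bodies outside the promoter held MOF at 3 of the 9 (Ocln, Tjp3 and F11r), against 23.3% of genes with H3K4me3, H3K4me3 at 5 against 27.3%, H3K27Ac at 4 against 30.3%, and Rfx2 at 0 against 0.269%. Gene length was not matched in these shares, and the members ran from 1263 bp (Cldn3) to 75080 bp (Tjp1). The highest MOF score around any member was inside Ocln, 1040 in an intron at chr13:100518127-100518496, where H3K4me3 and H3K27Ac were also called. Ocln also held a MOF peak of 825 over a coding exon at chr13:100511415-100511757, where H3K27Ac of 6.98 was called without H3K4me3. Inside F11r, by contrast, the intronic MOF peaks (scores 282 and 465) overlapped neither mark, and neither did those inside Tjp3 (287 and 571). F11r had the most MOF peaks, 5 in all or 0.746 per 10 kb, a density above that of 98.5% of genes with H3K4me3. Of these, only a flank peak of 830 scored above the median of 582 over all MOF peaks. Cldn1 had no MOF peak within 20 kb, and the nearest was 47083 bp from its start.

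**Figure D3:**
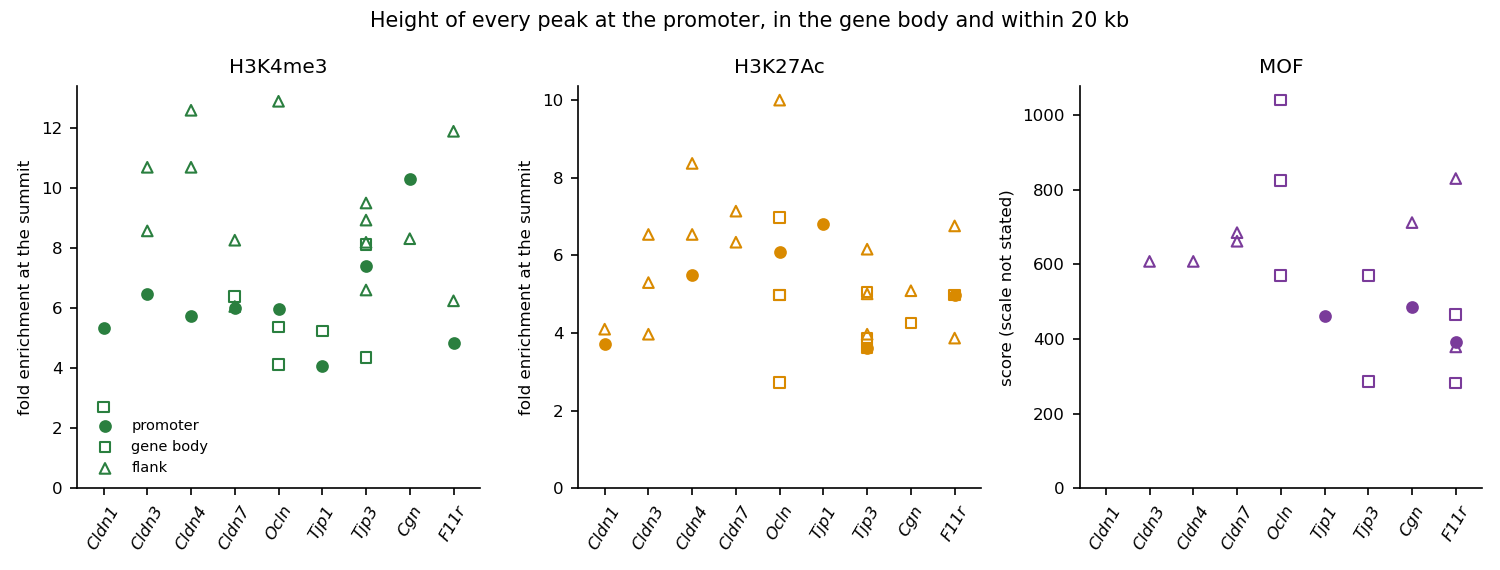
Every peak at the promoter (filled circles), in the gene body (squares) and within 20 kb (triangles) of each gene, with fold enrichment at the summit for H3K4me3 and H3K27Ac and the score for MOF on axes from 0. The highest MOF score is the Ocln gene body peak at 1040, followed by the F11r flank peak at 830, and Cldn1 has no MOF peak.

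Many flank peaks were the promoters of neighbours, which was the case for 3 of 6 MOF, 9 of 13 H3K4me3 and 8 of 14 H3K27Ac peaks. The MOF peaks near Cldn7 lay at Slc2a4 (score 685) and at the shared promoter of Ctdnep1 and Elp5 (662), both with both marks, although Cldn7 between them had H3K4me3 alone. The third was at Tstd1, upstream of F11r, with a score of 379 and no mark. The only Rfx2 peak, with a fold enrichment of 4.49, was at the promoter of Mrpl54, a mitochondrial ribosomal protein gene, 18889 bp from a Tjp3 start, and it ranked 318 of 337. Around Tjp3, marks were also at Apba3 and Pip5k1c, and H3K4me3 alone at Matk. Wbscr25 near Cldn3, Mettl27 near Cldn4 and Gtf2h2 near Ocln carried both marks and no MOF. At Gtf2h2 the H3K4me3 fold enrichment was 12.9, above the 5.99 of Ocln.

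A MOF peak also overlapped both marks at 3 flank sites at no curated promoter. The first lies between Cldn3 and Cldn4, which are transcribed away from each other, with a MOF peak at chr5:134965754-134967193 (score 608), H3K4me3 of 10.7 and H3K27Ac of 6.54, and with 19021 bp to Cldn3 and 18820 bp to Cldn4. H3K4me3 was higher there than at either claudin promoter, and H3K27Ac was higher than at Cldn4, while Cldn3 had no H3K27Ac peak to compare. The second lies beyond the end of F11r at chr1:171477962-171478334 (MOF score 830, H3K4me3 of 11.9, H3K27Ac of 6.76), and here too both marks were higher than at the F11r promoter. In GENCODE vM21 the nearest annotated start is 19448 bp from the first site and 15330 bp from the second. The 201 bases around the H3K27Ac summit of each are printed because MOF and both marks met there away from any curated promoter, and a GC box is in capitals. The reference marks 34.3% and 33.8% of these bases as repeats, a run of alternating T and G included in the first.
Between Cldn3 and Cldn4, chr5:134966038-134966238, plus strand: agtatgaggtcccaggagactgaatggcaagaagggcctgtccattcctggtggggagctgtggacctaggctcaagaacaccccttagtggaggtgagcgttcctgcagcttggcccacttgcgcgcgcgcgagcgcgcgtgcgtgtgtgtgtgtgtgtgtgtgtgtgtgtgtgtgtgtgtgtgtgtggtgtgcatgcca
Beyond F11r, chr1:171478200-171478400, plus strand: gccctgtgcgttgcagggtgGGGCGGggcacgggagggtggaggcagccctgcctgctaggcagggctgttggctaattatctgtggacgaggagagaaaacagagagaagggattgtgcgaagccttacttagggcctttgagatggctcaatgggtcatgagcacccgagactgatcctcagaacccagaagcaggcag
The third, beyond the end of Cgn, had MOF of 712, H3K4me3 of 8.32 and H3K27Ac of 5.09. Both marks overlapped MOF there but not each other. The MOF and H3K4me3 peaks, and not the H3K27Ac peak, lay at the promoter of a predicted gene, Gm52626. Of the 16 MOF peaks around the members, 11 overlapped a mark (68.8%, exact Clopper-Pearson 95% interval 41.3% to 89.0%, for counting error only), against 45.5% of all MOF peaks. Both marks were overlapped by 8 of the 16 (interval 24.7% to 75.3%), against 34.6% of all MOF peaks. Of the 10 MOF peaks at the members' own promoters or in their bodies, 3 overlapped both marks and 4 neither, and the other 5 with both marks were flank peaks.

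Other genes of the junction were counted from lists of 20 claudins, 10 membrane proteins, and 24 scaffold and polarity genes. Of the 20 other claudins, 16 had no peak of any list at the promoter, and Cldn8, Cldn10, Cldn12 and Cldn23 had H3K4me3. Cldn8 was the only claudin with MOF at the promoter, with a score of 1320, higher than 94.2% of the list and higher than any around the members. Of the 10 membrane proteins, 8 had H3K4me3, 4 had H3K27Ac and 3 had MOF, at Lsr (916), the angulin of corners where cells meet, Cxadr (415), an adhesion molecule that viruses use as a receptor, and Crb3 (237), a polarity protein. Among the 24 scaffold and polarity genes, 22 had H3K4me3, 22 had H3K27Ac and 8 had MOF. Those 8 were Magi1 (1027), Rab13 (750), Mpdz (736), Pals1 (703), Vapa (546), Ybx3 (536), Sympk (386) and Pard6b (280). The highest H3K27Ac was at Magi3 (10.5), Pard6a (10.1), Cldn12 (9.51), Lsr (8.98) and Patj (8.24), all above the 6.82 of Tjp1. Over all 54 of these genes, H3K4me3 was at 63.0%, H3K27Ac at 53.7%, MOF at 12 (22.2%) and Rfx2 at 0. The shares over all genes were 54.0%, 44.1%, 23.7% and 1.21%.

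Adherens junction and desmosome genes had similar H3K4me3 counts. The mark was at 12 of 13 adherens junction and 12 of 14 desmosome genes, H3K27Ac was at 10 of each, and MOF was at 6 and 3. Over all genes the shares were 54.0% for H3K4me3, 44.1% for H3K27Ac and 23.7% for MOF. Their median H3K4me3 fold enrichment was 5.13 and 4.89, also below the 8.04 of all genes, and the median width of both groups was above the 1306 bp of all genes. The tight junction members had a median width of 1350 bp, and no test of these differences was made.

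**Figure D4:**
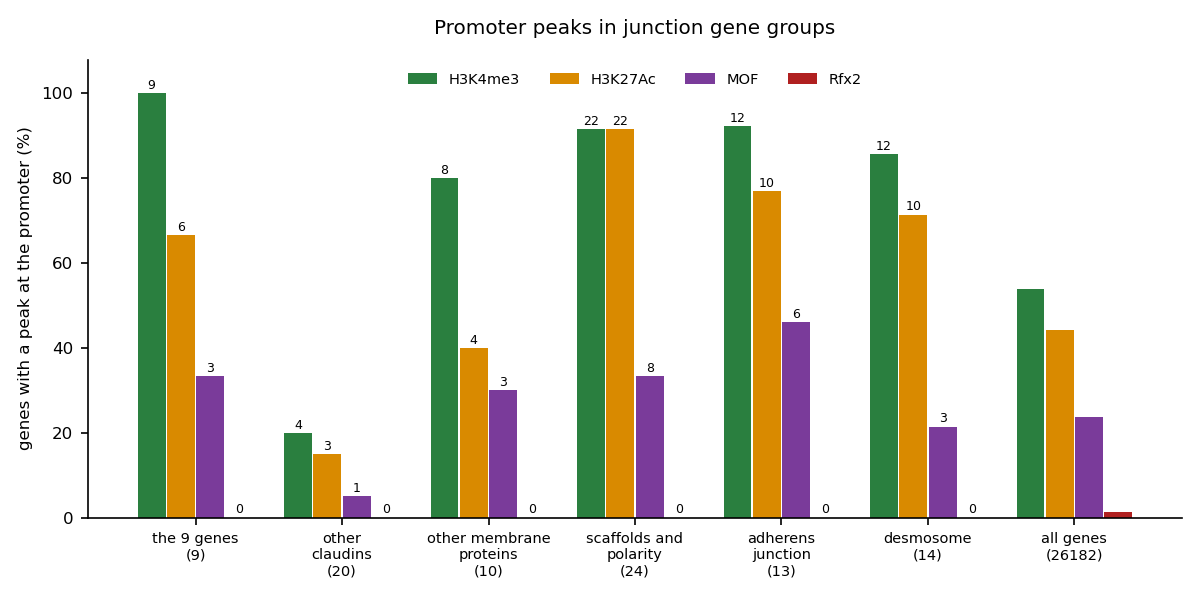
Percent of genes with a peak at the promoter, by antibody, for the 9 genes, other tight junction genes in 3 groups, adherens junction and desmosome genes, and all 26182 genes, with the number of genes above each bar and group sizes in parentheses. The bar of the 9 genes is at 100% for H3K4me3, and Rfx2 is at 0 in each junction group.

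The tissue label was set beside marker genes. At the promoter, H3K4me3 was at 6 of 10 keratinocyte markers, while Krt1, Krt10 and Lor, genes of differentiated keratinocytes, had no peak of any list there. It was at 2 of 5 melanocyte, 0 of 5 immune, 1 of 5 endothelial and 3 of 5 fibroblast markers, and the endothelial one (Kdr) and the fibroblast ones (Col1a2, Pdgfra and Dcn) are not keratinocyte genes. H3K27Ac was at 4 of the keratinocyte, 1 of the melanocyte and 1 of the fibroblast markers. Total epidermis mixes cell types and layers, so a peak at a tight junction gene cannot be assigned to the granular layer, and fewer cells of a type and less signal per cell cannot be told apart.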

How the data were processed

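Newborn (postnatal day 0.5) wild-type epidermis was profiled, with 1 library per peak list. Per the labels, reads were aligned with Bowtie2 to mm10 and peaks called with MACS2; versions are not given in the labels, and no control library or excluded regions are stated. For Rfx2, H3K4me3 and H3K27Ac the authors deposited MACS2 peaks with fold enrichment (a ratio) at the summit, −log10 q-values and a score. For MOF the deposited list holds regions with a score only and is longer than the MOF call stated in the study's methods, and how the lists relate is not given in the sources used here. Because peaks were called separately and with different settings for ChIPseq and Cut&Run, heights were compared within a list only.

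Overlaps with 26182 genes were computed in Python 3.11.15 (pandas 2.3.3, pysam 0.24.0) from curated RefSeq transcripts of GRCm38.p6; no peak ran past a chromosome end. Gene counts equalled those of bedtools 2.31.1, and on simulated peaks 2000 of 2000 planted promoter peaks were recovered. No significance test was used. The 9 genes, the gene lists and the 7 motifs were chosen with earlier results of these data known. Named besides the members were other tight junction genes with MOF or Rfx2 at the promoter, the 5 with the highest H3K27Ac, and neighbours within 20 kb with a promoter peak. Cldn25 was not matched and Pals1 was matched by a synonym. Promoter sequences are RefSeq's (12 member starts matched by symbol, 1 read from the genome), and coordinates are 1-based. Alternatives were the promoter window, the overlap rule, the transcripts, the flank, the stronger 50% of each list (by q-value, or by score for MOF) and, chosen after seeing the data, a MOF list cut by score to the stated length.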

Additional observations from a re-analysis of the deposited data

How the results depend on the processing

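No paired analysis was possible because no groups were compared and only 1 list was at hand for an antibody. Of 74 alternative values, 56 stayed within 1.5 times the value reported, or for the MOF share inside its interval. H3K4me3 stayed at 9 of 9 members, H3K27Ac at 6 and Rfx2 at 0 under each other promoter window and each set of transcripts. With 2.5 kb on either side of a start, MOF was at 5 members, Ocln and Tjp3 included, against 27.8% of all genes. Once predicted RefSeq transcripts were added, MOF was at 4 members, Ocln included, against 18.4% of the 38662 genes then counted. With the centre of the peak required in the promoter window, H3K4me3 was at 4 members against 25.5% of all genes and H3K27Ac at 2 against 26.2%. The 5 H3K4me3 peaks that dropped out had centres 176 to 883 bp downstream of a start, and the other tight junction genes had 4 with MOF, 12 with H3K4me3 and 17 with H3K27Ac. With the stronger 50% of peaks, ranked by q-value (by score for MOF) and not by fold enrichment, MOF was at 0 members against 14.5% of all genes and at 6 of the other tight junction genes, and H3K4me3 was at 5 members (Cldn1, Ocln, Tjp3, Cgn and F11r) against 45.3% and H3K27Ac at 5 (Cldn1, Cldn4, Ocln, Tjp1 and F11r) against 36.7%. Around the members that choice left 7 MOF, 0 Rfx2, 16 H3K4me3 and 17 H3K27Ac peaks, and 7 of the 7 MOF peaks overlapped a mark (100%, against 52.3% of all the stronger MOF peaks). With the MOF list cut by score to the length the study's methods state, chosen after seeing the data, MOF was at 0 members against 17.5% of all genes, and 9 MOF peaks were left around them. A flank of 50 kb gave 50 H3K4me3 and 49 H3K27Ac peaks. Height and width were not varied. The lists hold no read counts, and which missing peaks a deeper library would show was not tested.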
